A study of Mus musculus with 2 samples.

Results

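The 10 genes described here, *Tcf21*, *Tbx2*, *Tbx3*, *Tbx4*, *Tbx5*, *Foxf1*, *Gli1*, *Meox2*, *Nr2f1* and *Nr2f2*, encode transcription factors of the lung mesenchyme. They were taken by name from the 32285 genes of the deposited matrices and all 10 were found and tested. The measurements come from 2 single-cell RNA libraries of lung cells from wild type C57BL/6 mice at 3 months of age, with no treatment and no other genotype, so that the comparisons are between kinds of cell. Lungs were digested with pronase and collagenase, and live single cells were sorted for the blue autofluorescence of stored retinoids (UV-positive cells). The number of mice behind each library is not given in the sources used here, and both libraries were made with droplet 3′ chemistry that counts unique molecular identifiers (UMIs). The fit takes out the overall difference between the 2 libraries. Its p-values therefore rest on how far the differences between cell groups vary from library to library, estimated over all 6 groups together. This spread may be technical.

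These factors act at different steps of mesenchymal identity. *Tcf21* is a basic helix-loop-helix factor of lipofibroblast progenitors. The T-box genes *Tbx2*, *Tbx3*, *Tbx4* and *Tbx5* pattern the lung bud mesenchyme and its smooth muscle, and *Foxf1* is a forkhead factor needed for the lung vasculature. *Gli1* is a transcriptional target and effector of Hedgehog signalling, *Meox2* is a homeobox factor of mesoderm, and *Nr2f1* and *Nr2f2* are orphan nuclear receptors, the latter best known for venous endothelial identity.

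Library 1 held 9669 barcodes and 48762735 UMIs, and library 2 held 10050 barcodes and 93970185 UMIs. After cells under 200 genes or over 10% mitochondrial UMIs were left out, 9634 and 9988 cells remained, with medians of 4480 and 7578 UMIs. The libraries shared 23 barcodes. Cells were named by counts of marker transcripts. Stromal cells held at least 3 UMIs of *Col1a2*, *Mfap4* and *Pdgfra* together, endothelial cells of *Cdh5*, *Pecam1* and *Egfl7*, epithelial cells of *Epcam*, *Cdh1* and *Lamp3*, and immune cells of *Ptprc*, *Laptm5* and *Cd52*. Stromal cells without a UMI of the matrix proteoglycan gene *Dcn* were called alveolar (5805 cells in library 1 and 5545 in library 2) and those with at least 3 were called adventitial (1017 and 998), with 823 and 895 cells between. There were 56 and 360 endothelial cells, 930 and 101 epithelial cells, and 266 and 334 immune cells. Barcodes that met several of these rules (420 and 1640) or none (317 and 115) were left out of the comparisons. No doublet caller was run, so that doublets within a class, or with under 3 marker UMIs of a second class, would remain among the cells compared.

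Markers outside these rules followed the names. A list of 6 endothelial markers summed to 13988 and 11255 CPM (UMIs per 1000000 UMIs) in the endothelial cells of libraries 1 and 2 and to 22.7 and 25.0 CPM in the alveolar cells, and 8 stromal markers summed to 11019 and 10557 CPM in the alveolar cells. The alveolar and adventitial cells were less far apart. A list of 6 adventitial markers summed to 1230 and 1538 CPM in alveolar cells against 2967 and 3177 CPM in adventitial cells, and 6 alveolar markers summed to 5081 and 6136 CPM against 2494 and 4040 CPM. "Adventitial" here thus means stromal cells with at least 3 *Dcn* UMIs, which were also deeper, with medians of 6034 and 10656 UMIs against 3958 and 6545 UMIs in the alveolar cells.

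The 10 genes fell into 3 patterns over these cells. *Tcf21*, *Tbx4*, *Tbx5*, *Meox2*, *Nr2f1* and *Nr2f2* were highest in stromal cells. *Foxf1* and *Tbx3* were highest in endothelial cells and low in alveolar cells. *Gli1* was found in stromal cells at a low level, and *Tbx2* was shared by stromal and endothelial cells. Each value below is the CPM of 1 group of cells, its UMIs pooled within 1 library, and the 95% intervals (exact Poisson for levels, exact conditional binomial for ratios) cover counting error only.

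**Figure D1:**
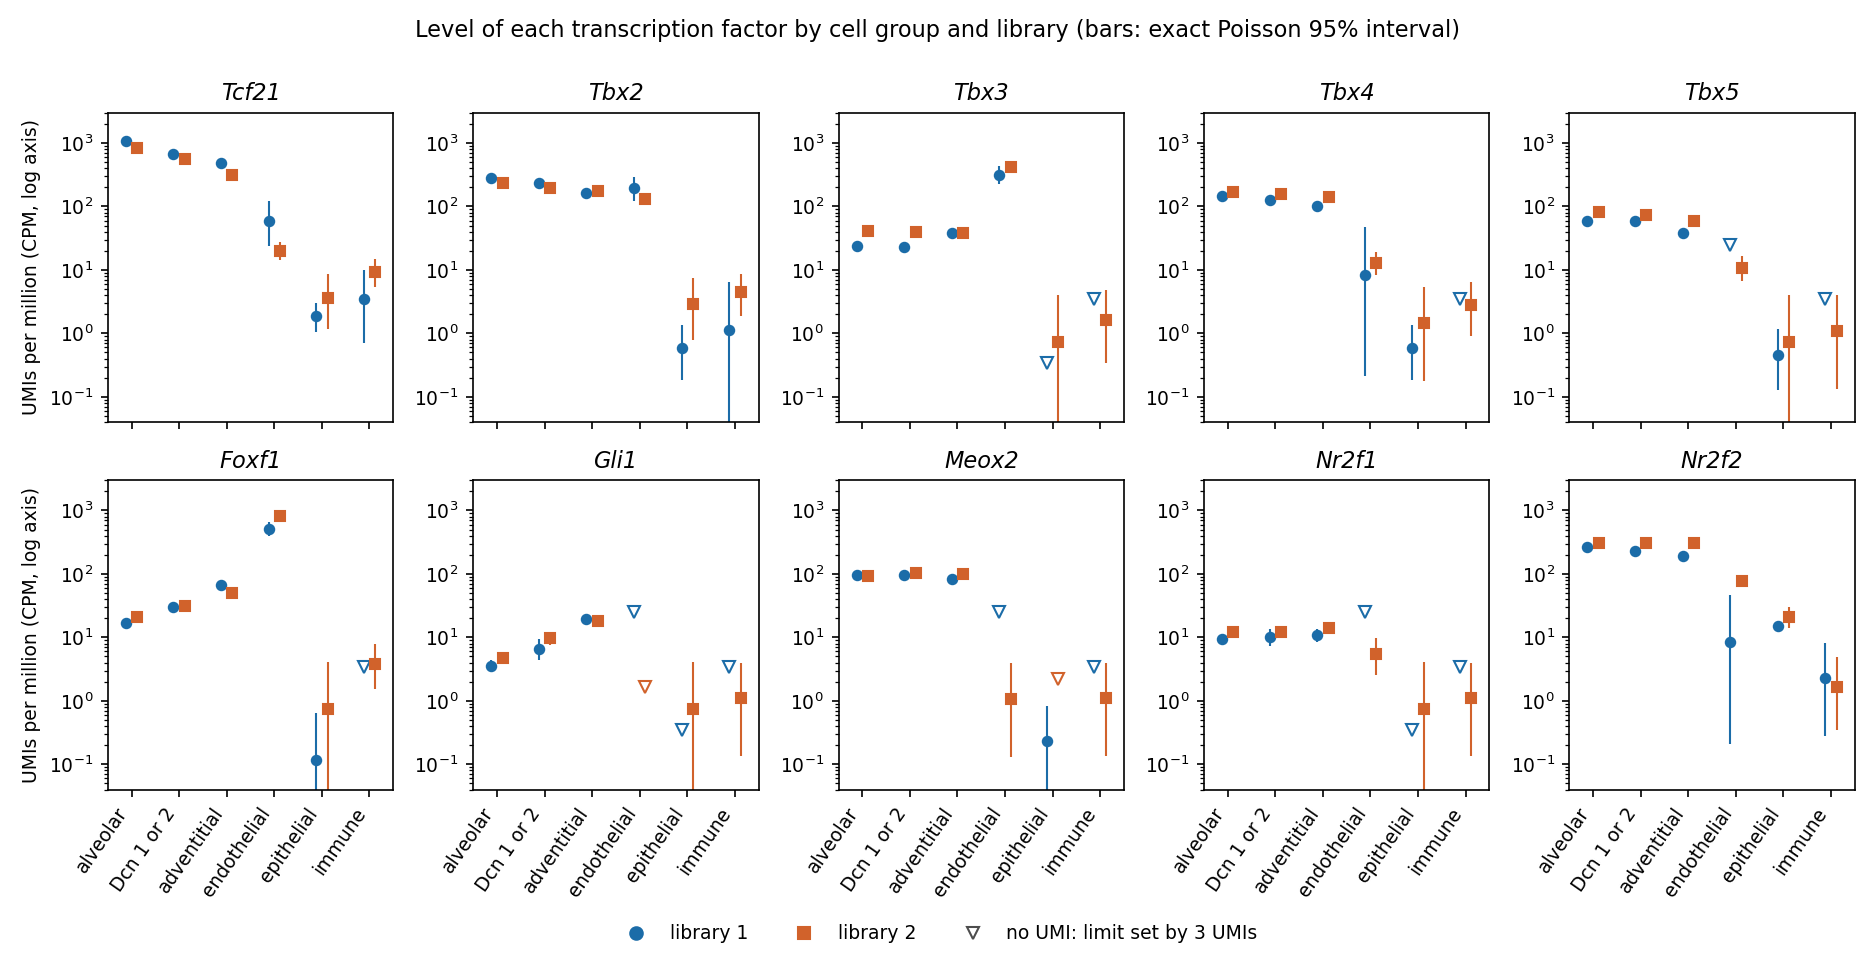
CPM (log axis) of the 10 transcription factor genes in 6 groups of cells, with library 1 as circles, library 2 as squares, exact Poisson 95% intervals as bars and open triangles at the limit set by 3 UMIs where no UMI was found. *Foxf1* and *Tbx3* peak in the endothelial cells, and the other 8 genes are highest in stromal cells except *Tbx2*, whose endothelial values lie near its stromal ones.

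Adventitial cells were compared with alveolar cells to ask which of these factors differ between both kinds of stromal cell. The counts were fitted with edgeR's quasi-likelihood test, with the library as a block. *Foxf1* and *Gli1* were higher in adventitial cells, *Tcf21* and *Tbx5* were lower, and the other 6 genes did not pass the adjusted threshold of 0.05. Among the 13816 genes tested, 7.14% were higher and 4.42% were lower, beside 2 of the 10 in each direction.

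*Tcf21*, the lipofibroblast factor, was measured at 1070 CPM in the alveolar cells of library 1 and 846 CPM in those of library 2, against 478 and 317 CPM in adventitial cells. The groups did not overlap and both libraries moved the same way. With 2 values a group this is a weak criterion, and the share of all genes without overlap was not counted, here or below. It was 2.38-fold lower in adventitial cells (log2 fold change -1.25, SE 0.22, adjusted p = 0.000981). The call was lost when the library was not a block (adjusted p = 0.203) and in DESeq2 (adjusted p = 0.0784). A UMI of *Tcf21* was found in 88.5% and 93.9% of alveolar cells, and in 77.9% and 72.9% after every cell was thinned to 2000 UMIs. In adventitial cells the thinned shares were 53.4% and 39.4%. In epithelial cells, which should lack the gene and had medians of 9341 and 13627 UMIs, 1.51% and 3.96% of cells held a UMI.

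*Gli1*, the Hedgehog effector, was at 3.58 and 4.77 CPM in alveolar cells and at 19.8 and 18.1 CPM in adventitial cells. Both adventitial values lay above both alveolar values. The difference was 4.59-fold (log2 fold change 2.20, SE 0.26, adjusted p = 3.75e-05). *Gli1* was the only one of the 4 called genes to keep its call without the block and in DESeq2. *Foxf1* stood at 16.9 and 20.6 CPM in alveolar cells and at 67.5 and 50.3 CPM in adventitial cells, again without overlap. *Foxf1* was 3.23-fold higher (log2 fold change 1.69, SE 0.26, adjusted p = 0.000274), and this call was lost without the block (adjusted p = 0.0589) and in DESeq2 (adjusted p = 0.0810). The list of 6 endothelial markers summed to 49.1 and 26.1 CPM in adventitial cells against 22.7 and 25.0 CPM in alveolar cells. The highest single marker gave 43.8 and 17.0 CPM of the adventitial sums and 18.3 and 15.7 CPM of the alveolar ones. The part of endothelial RNA in the *Foxf1* levels was not tested.

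The T-box genes differed less between the stromal groups. *Tbx5* was at 58.8 and 83.0 CPM in alveolar cells and at 38.1 and 58.7 CPM in adventitial cells. Its fitted log2 change was -0.53 (SE 0.16, adjusted p = 0.0383). The adventitial level was the lower one within each library, but this call was lost without the block (adjusted p = 0.813), in DESeq2 (adjusted p = 0.468), with DESeq2's size factors in edgeR (adjusted p = 0.0518) and with at least 5 marker UMIs for a class (adjusted p = 0.0663). *Tbx2* was at 283 and 237 CPM in alveolar cells and at 163 and 176 CPM in adventitial cells, and *Tbx4* at 147 and 168 CPM against 103 and 143 CPM. For *Tbx2* (log2 change -0.58, SE 0.20) the adjusted p was 0.0705 and for *Tbx4* (-0.35, SE 0.16) it was 0.214. Neither gene's groups overlapped, which without the share over all genes adds no support. *Tbx3* gave no constant direction, with 23.8 and 40.4 CPM in alveolar cells and 37.9 and 38.6 CPM in adventitial cells.

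*Meox2*, *Nr2f1* and *Nr2f2* overlapped between the stromal groups. *Meox2* was at 97.3 and 91.2 CPM in alveolar cells and at 82.2 and 99.7 CPM in adventitial cells (log2 change -0.03, SE 0.15). *Nr2f2* was at 269 and 309 CPM against 191 and 311 CPM, and *Nr2f1* at 9.52 and 12.3 CPM against 10.9 and 14.0 CPM. The adjusted p-values of these 3 genes were 0.956, 0.609 and 0.648 for *Meox2*, *Nr2f2* and *Nr2f1*.

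**Figure D2:**
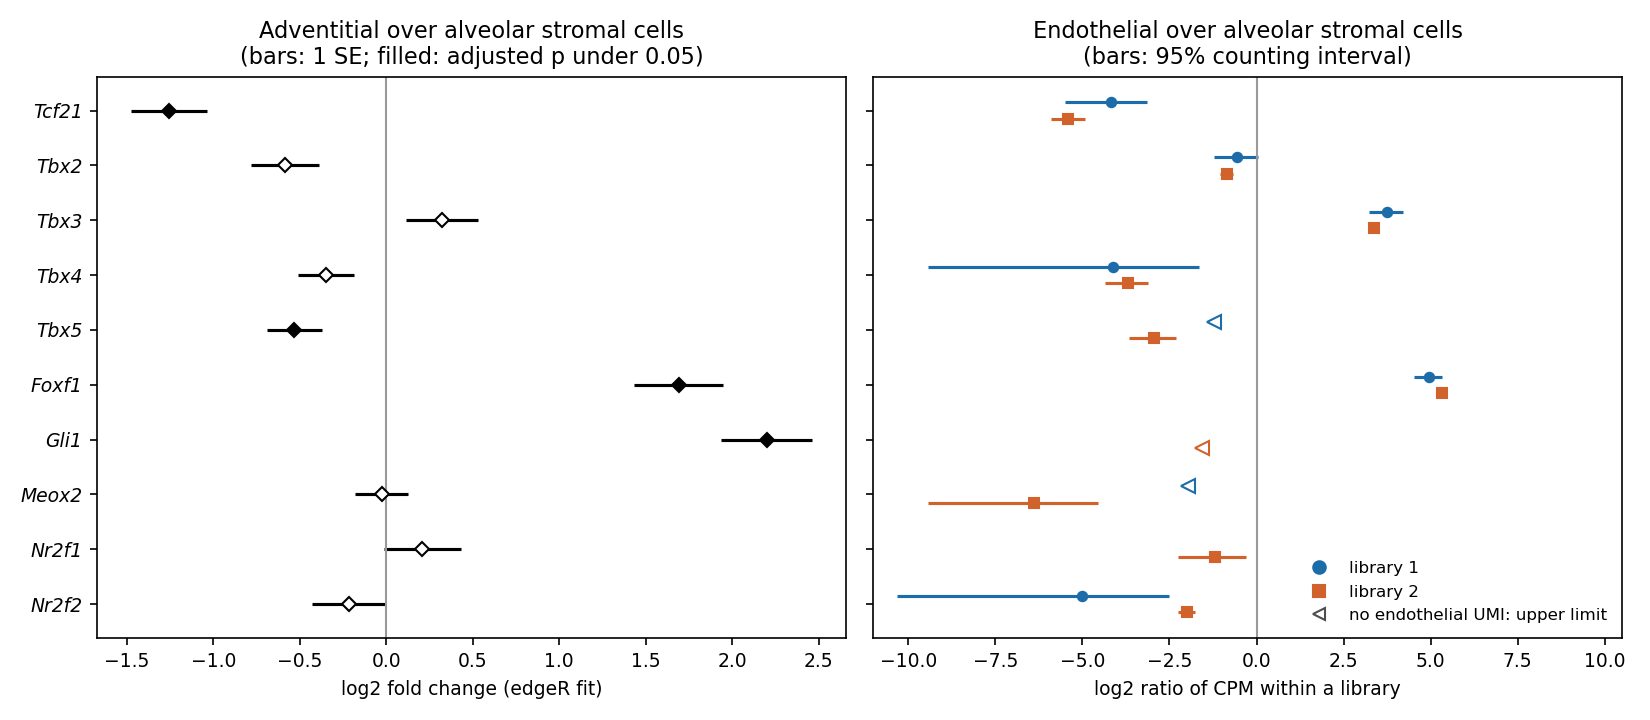
Left, log2 fold change of adventitial over alveolar stromal cells from the edgeR fit, with 1 SE as bars and filled symbols where the adjusted p was under 0.05. Right, log2 ratio of CPM of endothelial over alveolar cells within each library, with 95% counting intervals and open triangles at the upper limit where no endothelial UMI was found. In the left panel *Gli1* and *Foxf1* are the filled symbols to the right of 0, and *Tbx3* and *Nr2f1* lie there unfilled. In the right panel *Foxf1* and *Tbx3* are the genes to the right of 0. *Gli1* and *Nr2f1* of library 1 have no point there because the depth allows no ratio.

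The stromal cells were also read in finer bins of *Dcn* count. *Dcn* set the groups above: the bin without *Dcn* is the alveolar group, and the upper 2 bins are the adventitial cells split. The bins are thus no separate support for the differences above. *Tcf21* was at 1070 and 846 CPM in cells without *Dcn*, at 663 and 564 CPM with 1 or 2 UMIs, at 501 and 335 CPM with 3 to 9, and at 464 and 306 CPM with 10 or more. *Foxf1* went over the same bins from 16.9 and 20.6 CPM through 30.4 and 30.7 CPM to 48.7 and 48.2 CPM and then 78.8 and 51.6 CPM. *Gli1* stood at 3.58 and 4.77, 6.64 and 9.70, 12.2 and 14.1, and 24.3 and 20.6 CPM. In each library the order of the 4 bins was the same for these 3 genes, although the upper 2 bins of *Foxf1* in library 2 lay within each other's counting error. No test was made of the bins.

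**Figure D3:**
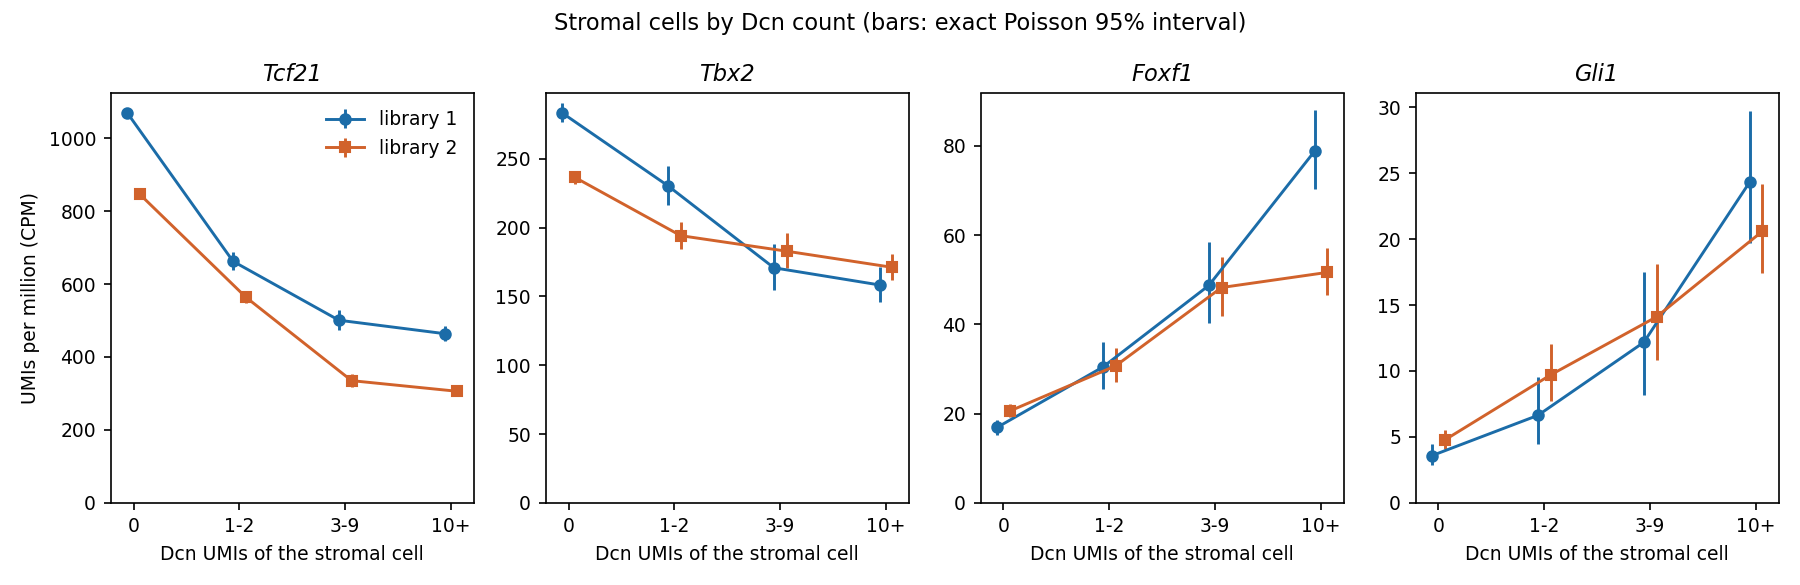
CPM of *Tcf21*, *Tbx2*, *Foxf1* and *Gli1* in stromal cells grouped by their count of *Dcn* UMIs, with 1 line per library and exact Poisson 95% intervals. *Tcf21* and *Tbx2* are lower and *Foxf1* and *Gli1* higher in the cells with 10 or more *Dcn* UMIs than in those without, with *Gli1* at 24.3 and 20.6 CPM.

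Within the adventitial cells, those with a UMI of *Pi16*, a marker of adventitial progenitor-like fibroblasts, held more *Gli1*. The level was 40.7 CPM in 227 *Pi16*-positive cells of library 1 and 44.7 CPM in 79 such cells of library 2, against 13.7 and 15.6 CPM in the cells without a *Pi16* UMI. The ratios were 2.98 and 2.87, the latter with a 95% interval of 2.02 to 4.01. *Foxf1* was at 82.9 and 77.6 CPM against 63.0 and 47.8 CPM. *Tcf21* was at 548 and 427 CPM against 458 and 307 CPM. *Tcf21* was thus higher in the *Pi16*-positive cells, whereas it was lower in the higher *Dcn* bins. No test was made of these sets. Stromal cells with at least 2 UMIs of *Hhip* and *Aspn*, genes used for myofibroblasts, numbered 239 and 536, with *Gli1* at 38.4 and 21.9 CPM and *Tcf21* at 611 and 535 CPM. Alveolar cells with a UMI of *Lrat*, the gene of the enzyme that esterifies retinol for storage, and those without differed little, with *Tcf21* at 1064 and 800 CPM against 1080 and 879 CPM.

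The pathway that *Gli1* belongs to was read from a list of 17 Hedgehog genes, *Gli1* itself left out. Of 15 tested, 7 were higher and 2 were lower in adventitial cells, beside 7.14% and 4.42% of all genes tested, with a median log2 fold change of 0.36 beside -0.04 over all genes tested. *Cdon*, a co-receptor of Hedgehog ligands, rose from 2.18 and 1.39 CPM to 21.5 and 11.7 CPM (log2 fold change 3.20, SE 0.25, adjusted p = 3.73e-07). *Hhip*, the ligand-binding inhibitor and a target of the pathway, rose from 13.4 and 22.6 CPM to 66.7 and 52.3 CPM (1.78, SE 0.23, adjusted p = 0.000134). *Scube2*, which helps release the ligand, fell from 258 and 315 CPM to 78.5 and 115 CPM (-1.55, SE 0.17, adjusted p = 1.06e-05). *Ptch1*, the receptor and another target, was named after its values were seen, with 73.7 and 59.2 CPM in alveolar and 232 and 99.9 CPM in adventitial cells (1.28, SE 0.26, adjusted p = 0.00323).

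Of 59 other mesenchymal factors 46 were tested, and 16 were higher and 3 lower in adventitial cells, beside 7.14% and 4.42% of all genes. Their median log2 fold change was 0.41, beside -0.04 over all genes. The 3 with the largest change were *Foxl1* (3.71, SE 0.33, adjusted p = 5.73e-06), *Osr2* (2.90, SE 0.43, adjusted p = 0.000362) and *Prrx2* (2.87, SE 0.23, adjusted p = 1.36e-06), a forkhead, an odd-skipped-related and a paired-related homeobox factor. All of them were low transcripts, *Foxl1* with 1.41 and 0.490 CPM in alveolar and 20.2 and 5.61 CPM in adventitial cells. *Foxf2*, the closest relative of *Foxf1*, was named after its values were seen. It went the other way, with 60.7 and 55.8 CPM in alveolar and 26.2 and 34.0 CPM in adventitial cells (-0.93, SE 0.16, adjusted p = 0.000888). Of the other T-box genes 4 of 13 were tested and of the other NR2 receptors 3 of 5, and 0 of them were called by edgeR. Among 9 tested of 11 dimer partners and relatives of *Tcf21*, *Id4* was higher (1.65, SE 0.23, adjusted p = 0.000184) and *Msc*, the relative most like *Tcf21*, was lower (-1.36, SE 0.33, adjusted p = 0.0160).

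Endothelial cells were compared with alveolar cells to ask which of the factors are shared with the vessel lining. They had medians of 1899.5 and 4028.5 UMIs, against 3958 and 6545 UMIs in alveolar cells. Another 86 and 931 barcodes met both the endothelial and the stromal rule and were left out. The endothelial cells compared thus held under 3 UMIs of the stromal rule's genes, which favours low stromal transcripts. *Foxf1* and *Tbx3* were higher and the other 8 genes were lower, beside 16.2% of all genes higher and 19.1% lower. *Foxf1* reached 519 CPM in the endothelial cells of library 1 and 821 CPM in those of library 2, ratios of 30.7 (95% interval 23.1 to 40.2) and 39.9 (36.6 to 43.5) over the alveolar cells of the same library. *Tbx3* reached 318 and 418 CPM, ratios of 13.4 (9.36 to 18.6) and 10.3 (9.48 to 11.3). The fitted log2 changes were 5.01 (SE 0.29, adjusted p = 8.77e-10) for *Foxf1* and 3.32 (SE 0.23, adjusted p = 7.15e-09) for *Tbx3*. Both passed the test also without the 56 endothelial cells of library 1, a fit in which the endothelial group is 1 sum and is assumed to vary like the other groups. After thinning, 57.7% and 76.0% of endothelial cells held a *Foxf1* UMI against 2.84% and 3.71% of alveolar cells.

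The other 8 genes were lower in endothelium to different degrees. *Tbx2* was at 67.9% and 55.1% of its alveolar level in libraries 1 and 2, and *Nr2f2* was at 3.11% (1 UMI) and 24.9%. *Tcf21* was at 5.47% and 2.37% of its alveolar level in libraries 1 and 2, and *Tbx4* was at 5.69% and 7.72%. The 8 stromal markers outside the gates stood at 0 to 8.45% of their alveolar levels in the endothelial cells of library 1 and at 0.887 to 4.03% in those of library 2, and the part of free RNA in these values was not tested. *Tbx5* had 0 and 20 UMIs, *Meox2* 0 and 2, *Nr2f1* 0 and 10, and *Gli1* 0 in both libraries. The 3-UMI limit was 25.1 CPM in library 1, so *Meox2* was at least 3.88-fold lower and *Tbx5* at least 2.34-fold lower there, whereas *Gli1* and *Nr2f1* could not be read at this depth. In library 2, *Gli1* was at least 2.94-fold lower and *Nr2f1* was at 0.439 of its alveolar level (0.209 to 0.815). *Nr2f1* lost its call without endothelial library 1 (adjusted p = 0.0519, with the spread taken from the other groups), without the block (adjusted p = 0.166) and after thinning (adjusted p = 0.314).

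Against adventitial cells the picture was alike for the genes that were higher. *Foxf1* and *Tbx3* were again higher in endothelium and 7 genes were lower, beside 15.9% and 19.2% of all genes. The fitted log2 changes were 3.32 (SE 0.28, adjusted p = 8.61e-08) for *Foxf1* and 2.99 (SE 0.24, adjusted p = 4.35e-08) for *Tbx3*. *Tbx2*, at 192 and 130 CPM in endothelial cells, lay on either side of its adventitial levels of 163 and 176 CPM and was not called (-0.43, SE 0.24, adjusted p = 0.189). *Tbx5* and *Nr2f1*, lower in the fit, lost their calls after thinning (adjusted p = 0.586 and 0.0911), and *Nr2f1* also without the block (adjusted p = 0.107). Both comparisons share the endothelial sums. Against alveolar cells *Tbx2* was lower (-1.01, SE 0.24, adjusted p = 0.00305), a call lost without the block (adjusted p = 0.0804), in DESeq2 (adjusted p = 0.130) and after thinning (adjusted p = 0.0508).

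Among endothelial cells *Tbx2* was higher in the set with *Car4* and *Ednrb*. Capillary endothelium of the lung holds aerocytes, which carry *Car4* and *Ednrb*, and general capillary cells rich in *Gpihbp1*, while *Vwf* marks larger vessels. Of the endothelial cells, 12 in library 1 and 70 in library 2 held a UMI of both *Car4* and *Ednrb*, 20 and 109 held neither with at least 3 *Gpihbp1* UMIs, and 5 and 67 held at least 3 *Vwf* UMIs. The *Vwf* set shared 0 and 7 cells with the first set and 1 and 22 cells with the second. In libraries 1 and 2, 20 and 143 endothelial cells fell in none of the 3 sets. *Tbx2* was at 674 and 340 CPM in the *Car4* and *Ednrb* cells, at 0 and 47.6 CPM in the *Gpihbp1* cells, and at 0 and 87.7 CPM in the *Vwf* cells. Its ratio of the first to the second set was at least 9.27 in library 1 and 7.14 (95% interval 4.69 to 11.3) in library 2. A UMI was found in 83.3% and 87.1% of the *Car4* and *Ednrb* cells, against 0% and 16.5% of the *Gpihbp1* cells, with median depths of 2395 and 6798 UMIs against 1982 and 3638 UMIs.

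*Tbx3* was graded in the same way and *Nr2f2* in the opposite way. *Tbx3* was at 796 and 864 CPM in the *Car4* and *Ednrb* cells, at 96.9 (4 UMIs) and 257 CPM in the *Gpihbp1* cells and at 74.3 (1 UMI) and 309 CPM in the *Vwf* cells. In library 2, *Nr2f2* was at 10.4 CPM in the *Car4* and *Ednrb* cells (6 UMIs), at 116 CPM in the *Gpihbp1* cells and at 145 CPM in the *Vwf* cells, a ratio of 0.0900 (0.0318 to 0.207) of the first set to the second. Library 1 held 1 *Nr2f2* UMI in all its endothelial cells, which allows no reading. *Foxf1* differed little over these sets in library 2, with 890, 792 and 803 CPM. In library 1 it was at 521, 533 and 520 CPM, on 17, 22 and 7 UMIs. The library 1 ratio of the first set to the second was 0.977 (0.487 to 1.93), which allows a difference either way. The ratio of *Foxf1* between the first sets in library 2 was 1.12 (0.985 to 1.28).

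**Figure D4:**
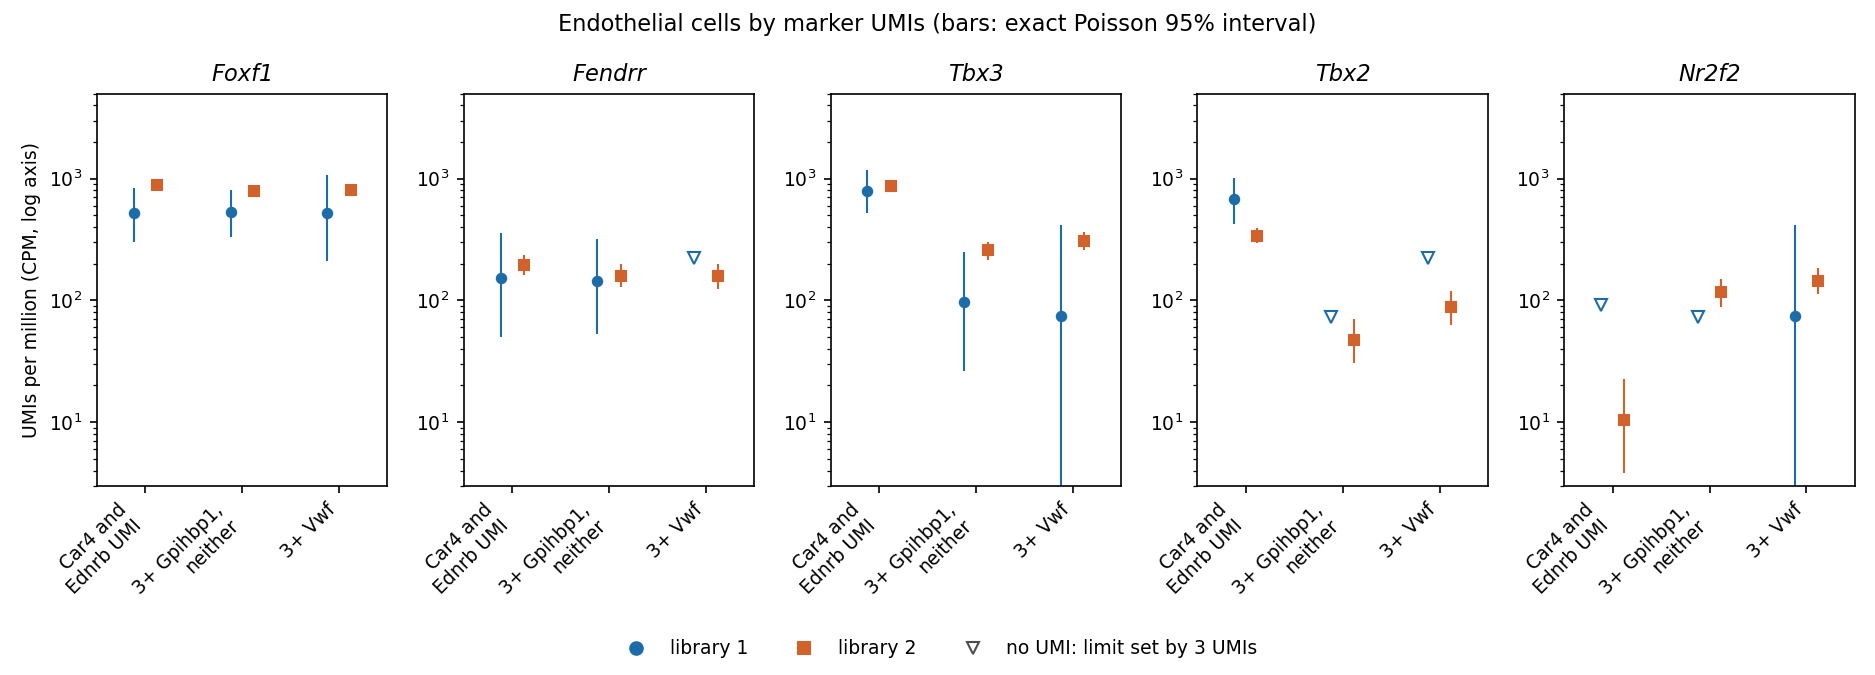
CPM (log axis) of 5 genes in 3 sets of endothelial cells defined by UMIs of *Car4* and *Ednrb*, of *Gpihbp1* or of *Vwf*, with library 1 as circles, library 2 as squares, exact Poisson 95% intervals and open triangles at the limit set by 3 UMIs. In library 2, *Foxf1* and *Fendrr* differ little over the sets, and library 1 holds few UMIs of both. *Tbx2* and *Tbx3* are highest in the *Car4* and *Ednrb* cells, and *Nr2f2* of library 2 is lowest there.

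Epithelial and immune cells held little of any of these genes. All 10 were lower than in alveolar cells in both comparisons, beside 29.3% of all genes in each. The 10 genes were chosen as mesenchymal factors, and both groups held under 3 UMIs of the stromal rule's genes. This direction was thus partly set by the choice of genes and cells. *Nr2f2* had the most UMIs of the 10 in epithelial cells, 130 and 29, and was at 5.59% and 6.88% of its alveolar level, while the 8 stromal markers were at 0 to 0.938% there. In immune cells the largest count of any of the 10 genes was 17 UMIs, for *Tcf21* in library 2. *Gli1* rested on 1 epithelial and 2 immune UMIs over both libraries, and its call in immune cells (adjusted p = 0.0462) was lost in 5 alternatives. After thinning, *Gli1* in epithelial cells (adjusted p = 0.0659) and *Foxf1* in immune cells (adjusted p = 0.0675) lost their calls too.

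Barcodes with at least 3 UMIs of the pericyte genes *Cspg4*, *Notch3*, *Higd1b* and *Cox4i2* and of no class other than stromal were few, 7 and 42, and 4 and 20 of them were also among the alveolar cells. In library 2 they held *Tbx2* at 419 CPM, *Tbx5* at 192 CPM, *Tbx4* at 215 CPM and *Nr2f1* at 49.1 CPM, against 237, 83.0, 168 and 12.3 CPM in the alveolar cells. In library 1, where the 7 barcodes held 10, 4, 5 and 1 UMIs of these genes, *Tbx2* was at 270 CPM and *Tbx4* at 135 CPM, below their alveolar levels of 283 and 147 CPM, and *Tbx5* was at 108 CPM. *Tcf21* and *Meox2* were at 506 and 37.7 CPM in the barcodes of library 2 against 846 and 91.2 CPM, and at 838 and 54.1 CPM in those of library 1 against 1070 and 97.3 CPM. In libraries 1 and 2, *Foxf1* was at 189 and 52.8 CPM (7 and 14 UMIs) against 16.9 and 20.6 CPM. *Tbx3* was at 81.1 and 52.8 CPM (3 and 14 UMIs) against 23.8 and 40.4 CPM. *Nr2f2* was at 270 and 374 CPM against 269 and 309 CPM, and *Gli1* had 0 and 3 UMIs. Leaving out stromal barcodes that met this rule or held at least 2 *Myh11* UMIs changed no call of the 10 genes.

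Several members lie beside a noncoding gene that is read from the opposite strand. *Foxf1* (chromosome 8, 121084386 to 121088144, plus strand, GRCm38) starts 1276 bases from *Fendrr* (121054882 to 121083110, minus strand), a long noncoding RNA known to be needed in lateral mesoderm. *Fendrr* was at 3.03 and 3.04 CPM in alveolar cells, 14.1 and 10.2 CPM in adventitial cells and 192 and 175 CPM in endothelial cells, and was called in both comparisons (log2 fold changes 1.98, SE 0.21, adjusted p = 1.28e-05, and 5.72, SE 0.23, adjusted p = 3.02e-11). It thus had the order of *Foxf1*. *2610027K06Rik* starts 328 bases from *Tbx2* on the other strand and was lower in adventitial cells (-1.14, SE 0.19, adjusted p = 0.00108), with 22.7 and 14.6 CPM in alveolar and 9.64 and 6.82 CPM in adventitial cells. *Gm43050* starts 748 bases from *Tbx5* on the other strand and was lower as well (-0.59, SE 0.16, adjusted p = 0.0198). Of 14 genes within 10 kb of a member's start 9 were tested, 2 were higher, *Fendrr* and the protein-coding *Bcas3* (1.58, SE 0.17, adjusted p = 9.21e-06), and 2 were lower, beside 7.14% and 4.42% of all genes. Neighbouring genes can share reads where they overlap, and the strand setting of the authors' counting is not given in the sources used here.

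The promoters of the gene that was lower in adventitial cells with the highest count, *Tcf21*, and of *Fendrr*, which moved with *Foxf1*, are shown as the stretches from 250 bases before to 50 bases after the RefSeq start (GRCm38.p6). The 7 windows used here are those of 5 of the 10 members and of *Fendrr*. Motifs for 5 families were searched on both strands: the E-box CAGCTG bound by basic helix-loop-helix factors, the GLI motif GACCACCCA, the T-box motif AGGTGTGA, the nuclear receptor motif AGGTCA and the forkhead motif GTAAACA, the last of them added after the windows had been seen. Capitals mark a match. The *Fendrr* window spans chr8:121083061-121083360 on the minus strand and the *Tcf21* window chr10:22820094-22820393 on the minus strand.
Fendrr: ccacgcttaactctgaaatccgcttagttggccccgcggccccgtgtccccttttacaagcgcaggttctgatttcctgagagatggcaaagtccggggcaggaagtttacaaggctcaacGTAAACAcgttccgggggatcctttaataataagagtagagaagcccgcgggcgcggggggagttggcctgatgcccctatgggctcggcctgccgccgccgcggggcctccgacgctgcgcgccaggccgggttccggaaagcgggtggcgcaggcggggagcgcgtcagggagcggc
Tcf21: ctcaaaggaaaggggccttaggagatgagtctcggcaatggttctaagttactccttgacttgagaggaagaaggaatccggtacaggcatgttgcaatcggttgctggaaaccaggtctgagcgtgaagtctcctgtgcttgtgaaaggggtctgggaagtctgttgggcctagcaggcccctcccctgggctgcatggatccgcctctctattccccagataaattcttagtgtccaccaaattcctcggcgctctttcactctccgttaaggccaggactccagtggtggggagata
The *Fendrr* window held 31 CG pairs and 64.7% G and C with 1 forkhead match 129 bases before the start, a motif found in 3.65% of all 32851 RefSeq windows. The *Tcf21* window held 8 CG pairs, 53.3% G and C and no match. Of the 7 windows 2 held the forkhead motif and 1, that of *Tbx4*, held the E-box (16.3% of all windows), while 0 held the GLI motif (0.253%), the T-box motif (1.28%) or the nuclear receptor motif (16.3%).

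The number of members found in a single cell was low. After thinning to 2000 UMIs, alveolar cells held a UMI of a median of 2 of the 10 genes in both libraries, 4.71% and 4.89% held none, and 38.8% and 41.2% held 3 or more. Adventitial cells had 12.8% and 11.8% with none. Of the 45 pairs of members, 31 in library 1 and 34 in library 2 had at least 20 thinned alveolar cells expected to hold both genes. Over these, the cells with both genes were 0.764 to 1.23 times the number expected from each gene's own share in library 1 and 0.782 to 1.20 times in library 2. Over all 45 pairs the ratios ran from 0.372 to 2.93 in library 1 and from 0.184 to 1.60 in library 2, and these extremes rest on 1 to 19 cells with both genes.

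Over 10 profiles (alveolar, adventitial, endothelial, epithelial and immune cells in each library) the levels of *Foxf1* and *Tbx3* were among the most alike (Pearson r of log2(CPM + 1) = 0.98, as for *Tbx5* and *Nr2f1*) and those of *Foxf1* and *Gli1* least alike (0.18). Among 8785 other genes averaging 10 CPM or more, the profiles most like *Foxf1* and *Tbx3* were in both cases *Prickle2* and *Fmo1*, the one most like *Tcf21* was *Igfbp3* (0.99), and those most like *Gli1* were *Itgbl1* (0.97) and *Gdf10* (0.96). The profiles share libraries, depth and the cell classes, and 146 genes reached r of 0.95 or more with *Tcf21* against 10 with *Gli1*.

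Among the 10 genes, the libraries themselves differed most for *Tbx3*. In alveolar cells it was 1.70 times as high in library 2 as in library 1 (95% interval 1.54 to 1.87), the only member past 1.5-fold. Of the 8150 genes averaging 10 CPM or more, 25.7% were past it, so this does not set *Tbx3* or the members apart. *Gli1* lies below that average. The other 9 ratios ran from 0.791 for *Tcf21* to 1.41 for *Tbx5*. With 1 sum per library there is no test of this difference.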

How the data were processed

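Live UV-positive cells of mouse lung digests were profiled in 2 droplet libraries. Per the labels and the study's methods, the authors made UMI count matrices with Cell Ranger 5.0.1 and the mm10 build, and the counts were used here as deposited. Cells with at least 200 genes and at most 10% mitochondrial UMIs were classed by marker UMIs, and UMIs were summed into 12 sums (6 cell groups in each of 2 libraries). One edgeR 4.0.16 quasi-likelihood fit (R 4.3.3, TMM, default low-count filter, library as a block, since the groups of a library come from the same sorted cells) tested 13816 genes, with Benjamini-Hochberg adjustment over all of them and a threshold of 0.05. Tests were two-sided. On simulated data the test recovered 176 of 200 genes changed by 1 on the log2 scale among 13309 genes for adventitial over alveolar cells, with 8 false calls. The simulation gave all groups of a library the same mean profile and all genes the same fixed spread. The changed genes were drawn from the more abundant ones. These rates therefore need not hold for the real sums or for low transcripts such as *Gli1*. Levels are CPM with exact 95% intervals, and a group without a UMI was given the limit of 3 UMIs per library. SEs were taken from the F statistic. For shares of cells at equal depth, cells were reduced at random to 2000 UMIs and shallower ones left out (735 and 41 alveolar, 30 and 48 endothelial cells).

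The members and lists were chosen with earlier results of these data known. Genes named were the members, up to 3 called genes per list with the largest change, *Fendrr*, and the exceptions marked as such. Library totals were 48762735 and 93970185 UMIs. Lists covered the Hedgehog pathway, other mesenchymal factors, other T-box genes, other NR2 receptors, relatives of *Tcf21* and neighbours within 10 kb of a member's start (GENCODE M21, GRCm38). Alternatives were no block, DESeq2's size factors, DESeq2 1.42.0, no low-count filter, gates of 5 UMIs, no UMI of another class, thinning, 5% mitochondrial UMIs and leaving out each library. Chosen after seeing the data were a *Dcn* minimum of 10, leaving out mural barcodes, and leaving out the small endothelial or epithelial sum. Levels and ratios were computed with Python 3.11.15 and scipy 1.17.1.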

Additional observations from a re-analysis of the deposited data

Results flagged for a closer look

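Barcodes that entered no comparison also held these transcripts. Among barcodes of no class, 9 of the 10 genes in library 1 and 8 in library 2 were above 3 UMIs. The share of all genes above 3 UMIs was not counted, so these numbers do not set the 10 genes apart. In library 2 these barcodes held *Tbx2* at 261 CPM, *Tbx4* at 186 CPM and *Tbx5* at 149 CPM, against 215, 110 and 29.2 CPM in library 1. In library 1 and library 2 the red cell markers summed to 18052 and 41061 CPM in these barcodes, the epithelial ones to 26957 and 12159 CPM, the stromal ones to 8432 and 2922 CPM, the smooth muscle ones to 162 and 2778 CPM and the pericyte ones to 112 and 1456 CPM. Their median depths were 997 and 1279 UMIs.

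Among barcodes that met both the stromal and the endothelial rule, 8 of the 10 genes in library 1 and 10 in library 2 were above 3 UMIs. Here too the share of all genes was not counted, and at this depth a low level is enough to pass 3 UMIs. There were 86 and 931 such barcodes, with median depths of 6001 and 14766 UMIs. *Foxf1* was at 166 and 467 CPM and *Tcf21* at 898 and 407 CPM in them, and *Gli1* had 0 and 21 UMIs. No explanation of these levels was tested.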

How the results depend on the processing

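Without the replicate block (the pairing of groups by library) the number of genes called fell from 1598 to 308 for adventitial over alveolar, from 4888 to 3163 for endothelial over alveolar, from 4858 to 3210 for endothelial over adventitial and from 7617 to 4939 for epithelial over alveolar cells. With each cell thinned to 2000 UMIs, which leaves fewer UMIs and 11130 genes tested, the counts were 934, 3128 and 4234 for adventitial over alveolar, endothelial over adventitial and epithelial over alveolar cells, and 4907 against 7514 for immune over alveolar cells. *Meox2* in adventitial over alveolar cells, never called, turned to log2 changes of 0.0156 with DESeq2's size factors and 0.0152 in DESeq2. *Gli1* in endothelial over alveolar cells, which has 0 endothelial UMIs and a fitted value set by the prior count, was -8.38 without endothelial replicate 1, and its log2 ratio was 0.21 without replicate 2. Counted once per gene, comparison and alternative, the members lost 24 calls and gained 3, the latter all for *Tbx2* in adventitial over alveolar cells. The cause was not tested. Depth limits endothelial library 1 most, where 3 UMIs correspond to 25.1 CPM.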
